A study of Drosophila melanogaster with 6 samples.

Results

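F3 larvae descended from flies exposed to a toxic challenge in the F1 generation were compared with F3 larvae without that history, using RNA of the larval proventriculus on Affymetrix Drosophila 2.0 arrays. The comparison is the log2 value on the array with past exposure minus the value on the array without it, over the 18769 of 18952 probe sets that are not Affymetrix controls. There was 1 array a side, so no F3 difference has a replicate error or a test. In place of one, each difference is set beside those within 2 replicate pairs of the same study, the 2 unchallenged arrays and the 2 arrays of larvae challenged with G418. G418 is an antibiotic that blocks translation in eukaryotic cells unless the product of a neomycin resistance gene inactivates it.

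All 6 arrays used Drosophila melanogaster larvae at instar 3 of the strain hairy-gal4 UAS-neoGFP, which carries a Gal4 driver named for the hairy gene and a UAS transgene named neoGFP. Both F3 groups were themselves unchallenged. The labels place the past exposure in F1 and do not state its dose, how many larvae were pooled, or whether arrays of 1 group came from separate dissections, so the spread within a pair may be technical. They also give no array batch. A gap between the 2 F3 arrays and the other 4 therefore cannot be told apart from one between runs.

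The proventriculus is a valve at the junction of foregut and midgut. Its cells secrete much of the peritrophic matrix, a sheath of chitin, peritrophins and mucins that lines the midgut lumen, and food passes it on the way to the digestive enzymes. Fat body, haemocytes, visceral muscle, the ring gland and the front of the midgut lie beside it in the larva. Polycomb and Trithorax proteins hold genes in repressed or active states through cell division, which is why they are often examined when a state is passed on.

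Several defining genes of the organ, chosen after their values were seen, stood at similar levels on both F3 arrays. The homeobox gene dve was at 11.51 without past exposure and 11.58 with it, and the forkhead factor gene fkh was at 10.10 and 10.16. The zinc finger gene drm stood at 11.28 and 11.26, odd at 8.63 on both arrays, and the signal gene hh at 9.34 and 9.04. Peritrophin-15a and Peritrophin-15b, peritrophic matrix proteins, were between 14.72 and 14.82 on the F3 arrays. The other 4 arrays held each of these genes at readable levels too, from 7.59 for hh on G418 replicate 1 upward. Of the 15 measured patterning regulators, 1, cad, was 2-fold lower with past exposure, at 5.83 without and 3.64 with it. Over all genes, 1.11% were 2-fold lower. Kr, D, byn and ct, also among the 15, lay below the median probe set, at 4.98, on both F3 arrays. Kr lay between 4.18 and 7.11 on the other 4 arrays and at 2.84 and 3.43 without and with past exposure.

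The F3 arrays were the most alike of the 15 possible pairs of arrays. They were at least 2-fold apart at 221 probe sets, or 1.18% of all described. Of these, 70 were higher with past exposure (0.373%) and 151 were lower (0.805%). The unchallenged replicates were 2-fold apart at 1293 probe sets (6.89%) and the G418 replicates at 645 (3.44%). The nearest other pair, unchallenged replicate 1 and G418 replicate 2, differed at 341. The SD of the differences was 0.32 on the log2 scale for the F3 pair, against 0.62 and 0.48 for the unchallenged and G418 replicates, and Pearson's r across probe sets was 0.992 for the F3 pair.

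**Figure D1:**
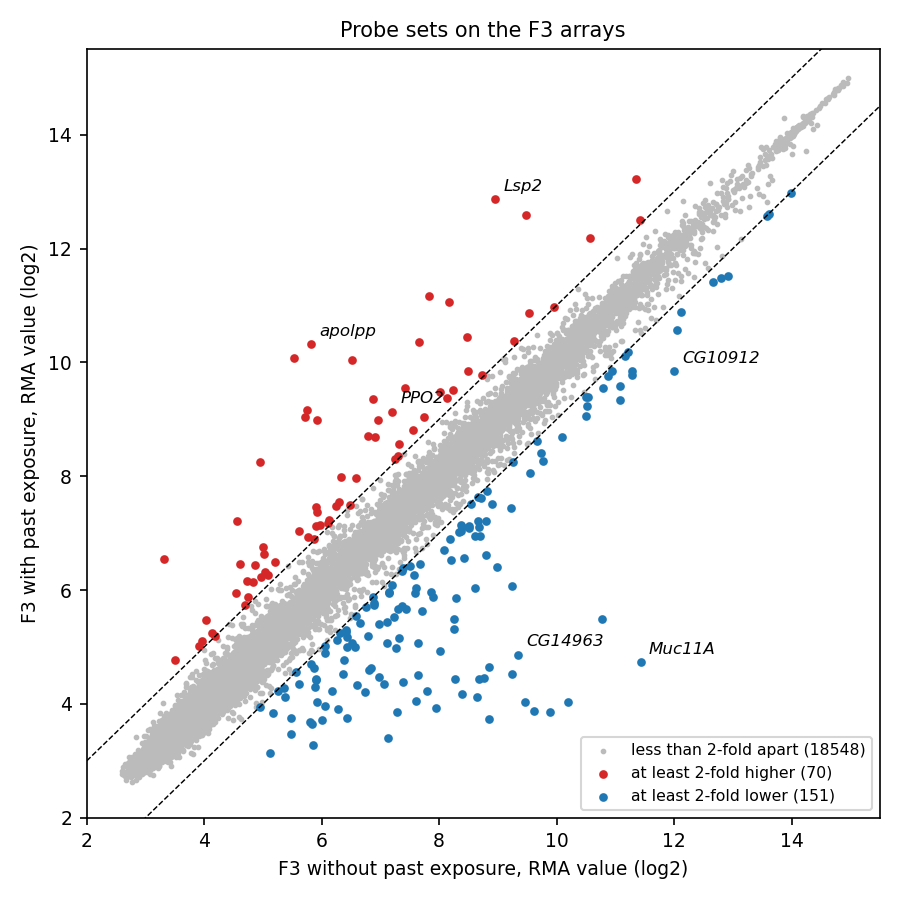
Each point is 1 probe set, with its RMA value in log2 units without past exposure on the x axis and with past exposure on the y axis. Dashed lines mark 2-fold; 70 probe sets lie above the upper line, among them Lsp2 and apolpp, and 151 below the lower one, among them Muc11A and CG14963.

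The largest differences were fewer too. At a log2 difference of 4 or more, 17 probe sets separated the F3 arrays, against 36 for the unchallenged replicates and 26 for the G418 replicates. At 6 or more the counts were 3, 7 and 17. By level, 103 and 94 of the F3 differences of 2-fold lay at mean levels of 4.98 to 7.95 and of 7.95 to 14.91, and only 2 below 3.84. The method behind the values, RMA, compresses differences of dim probe sets. Array medians lay between 4.91 and 5.02, and the 183 Affymetrix control probe sets had a median F3 difference of 0.07 with 2 of them 2-fold apart.

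**Figure D2:**
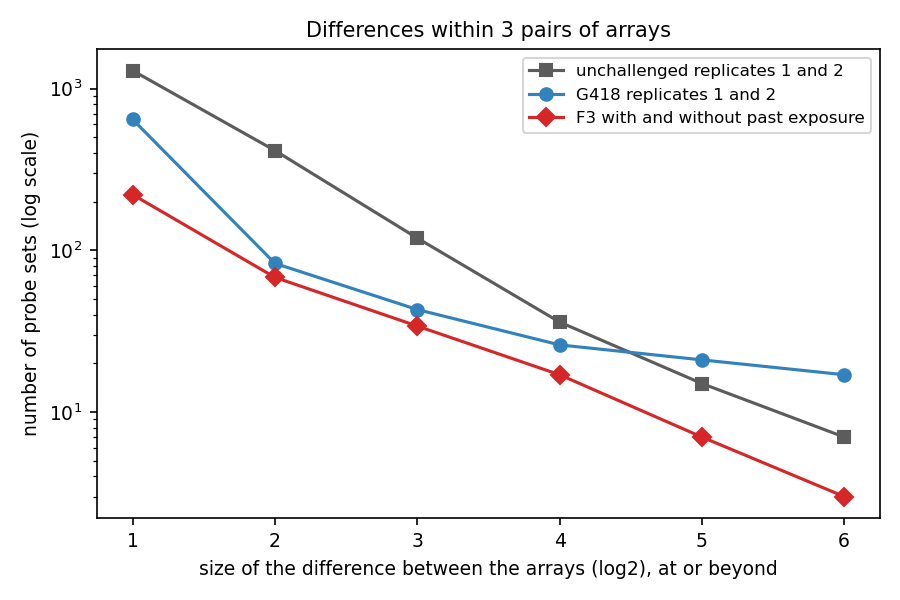
Number of probe sets (y axis, log scale) whose difference between 2 arrays is at or beyond the log2 size on the x axis. The F3 pair, in red, lies below both replicate pairs at every size, from 221 probe sets at 1 to 3 at 6.

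Many probe sets that separated the F3 arrays also separated the unchallenged replicates. Of the 70 higher with past exposure, 44 (62.9%) had unchallenged replicate 1 at least 2-fold above replicate 2, and 1 was the other way round. Of the 151 lower, 75 (49.7%) were higher on replicate 1 and 8 on replicate 2. By comparison, over all 11982 genes at 1 probe set each, replicate 1 was at least 2-fold above replicate 2 at 477. Replicate 2 was at least 2-fold above replicate 1 at 549. Neither replicate pair was 2-fold apart at 21 of the 70 and 62 of the 151. Named by 1 probe set each, 52 genes were 2-fold higher (0.434% of 11982 genes) and 133 were lower (1.11%).

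Which F3 array stood away from the rest differed between the directions. Among the 70 higher probe sets, the array without past exposure lay below all 4 unchallenged and G418 arrays at 43, while the array with past exposure lay above them at 27 and below them at another 27. Among the 151 lower probe sets, the array with past exposure lay below the other 4 at 89 and the array without it lay above them at 48. Over all probe sets, the array without past exposure was below the other 4 at 11.9% and above them at 21.8%, and the array with it was below at 12.7% and above at 25.1%.

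Fat body genes led the genes that were higher with past exposure. The fat body is the larva's storage and lipid organ, and in whole-tissue RNA fewer cells of a type and less RNA per cell cannot be told apart. The gene apolpp, which encodes the lipoprotein precursor apolipophorin, stood at 12.86 and 11.43 on unchallenged replicates 1 and 2, at 12.38 and 12.89 on the G418 arrays, and at 5.81 without and 10.32 with past exposure. The F3 array without past exposure was thus far below every other array, and the F3 array with it was second lowest. The log2 difference was 4.51, or 22.7-fold. Lsp2, a storage protein of the larval blood, was at 14.30, 13.44, 14.23 and 14.28 on the unchallenged and G418 arrays in the same order, at 8.95 without and at 12.87 with past exposure.

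The same order of arrays held for other genes, of which only Fbp1, Fbp2 and fon are among the fat body markers used here. Fbp1, the receptor through which the fat body takes up storage proteins, lay between 12.77 and 14.23 on the other 4 arrays and at 7.82 and 11.16 without and with past exposure. For fon, a clotting protein gene, the F3 values were 5.75 and 9.17 against a range of 9.30 to 12.07. Acbp4, an acyl-CoA binding protein gene, was at 5.92 and 8.99 against 10.61 to 13.05. Fbp2, CG12116, CG34166, CG2233, CG4830 and CG15369 had differences from 1.84 to 3.53, with both F3 arrays below the other 4. In all, 11 of the 15 genes with the largest positive difference had even the array with past exposure below the other 4, and in all 15 unchallenged replicate 1 exceeded replicate 2.

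Of 11 measured fat body markers, 5 were 2-fold higher with past exposure, 1, the lipase gene Lip3, was 2-fold lower and 9 lay above 0. Over all 11982 genes, 0.434% were 2-fold higher, 1.11% were 2-fold lower and 6376 lay above 0. The markers' median difference was 0.56, against 0.02 over all genes. The list's median level was 6.96 without past exposure and 9.17 with it, against 9.30 to 10.49 on the other arrays. Several markers hardly differed between the F3 arrays: Mtp, a lipid transfer protein gene, was 0.09 apart, ppl 0.13 apart and the transferrin gene Tsf1 0.26 apart. Both F3 arrays lay below the other 4 at 8 of the 11, and at 7.13% of all 11982 genes. Within the unchallenged pair the same list had a median of -1.31, replicate 2 minus replicate 1, and within the G418 pair -0.03.

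Further probe sets shared this pattern, here picked out after their values were seen. At 29 probe sets the array without past exposure was at least 2-fold below each of the other 5. They included the purine synthesis gene Prat2, at 4.13 without and 5.24 with past exposure, and Obp99b, an odorant-binding protein gene, at 11.42 and 12.50. Cyp4d1, a cytochrome P450 gene, stood at 5.91 and 7.46 against 8.73 to 11.15 on the other arrays. An unnamed probe set had the largest positive difference of all, 4.56, from 5.53 without to 10.08 with past exposure.

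**Figure D3:**
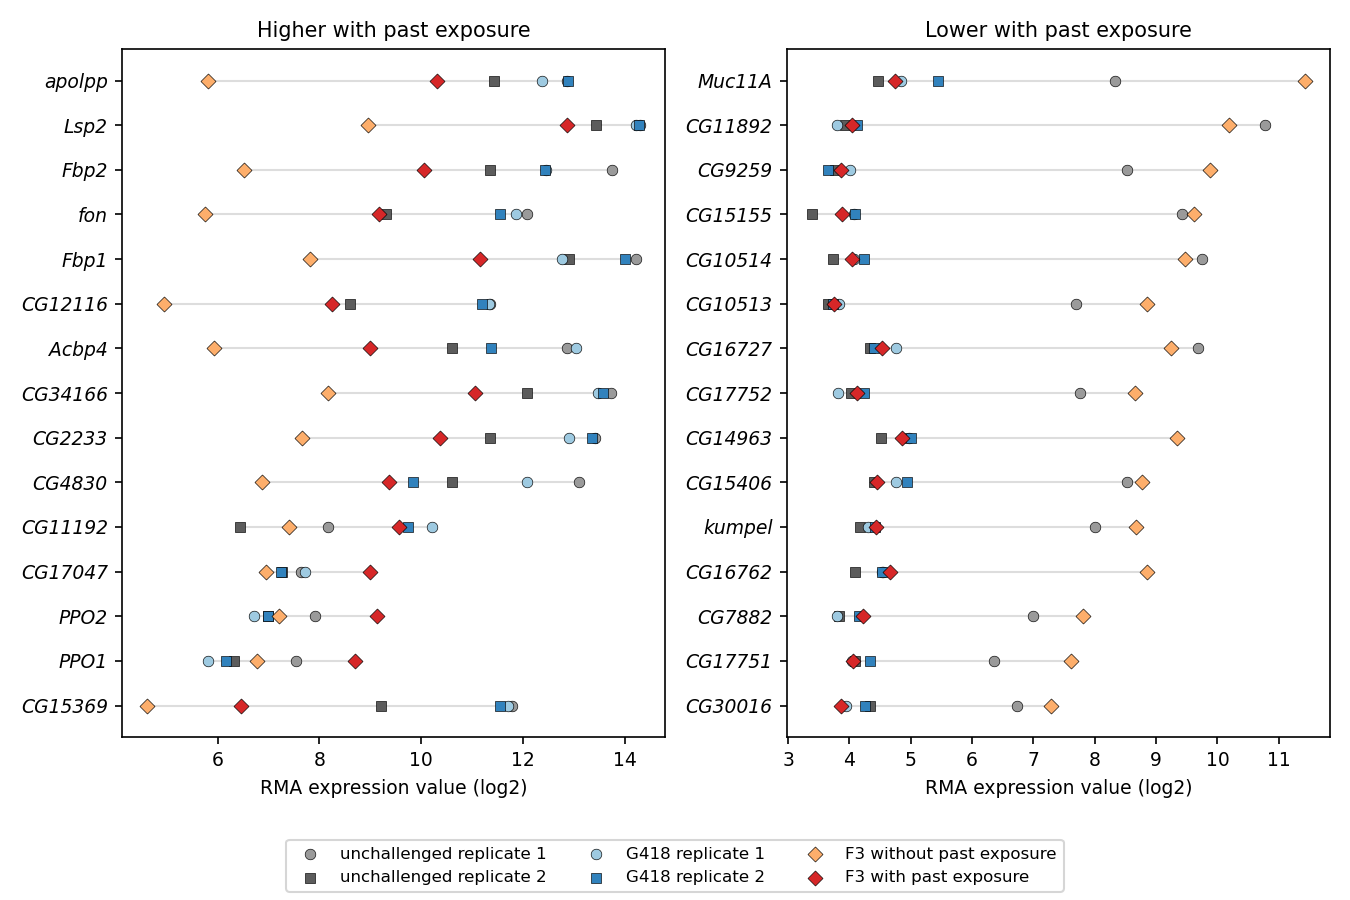
RMA values in log2 units (x axis) of the 15 genes furthest apart in each direction, 1 row a gene and 1 symbol an array. On the left, most genes have the orange diamond (F3 without) lowest and the red one (F3 with) next; on the right, the orange diamond stands apart at 7.28 or more, in 13 of 15 genes together with unchallenged replicate 1.

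The genes with the largest negative differences stood well above the other arrays without past exposure, and most did so on unchallenged replicate 1 too. Muc11A, a mucin gene, was at 8.34 and 4.46 on unchallenged replicates 1 and 2, at 4.84 and 5.44 on the G418 arrays, and at 11.43 without and 4.74 with past exposure. The F3 array without past exposure was highest, unchallenged replicate 1 next and the other 4 low; the difference was -6.69, or 103-fold. For all 15 genes of this set the value with past exposure lay between 3.74 and 4.86, and the value without it between 7.28 and 11.43. In 13 of the 15, the array without past exposure and unchallenged replicate 1 were both at least 2-fold above each of the other 4 arrays. In 6 of the 15 the array without past exposure was also at least 2-fold above every other array.

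Members of the ecdysteroid kinase-like family, predicted kinases linked to steroid and foreign compound metabolism, made up 4 of the 15. CG11892 was at 10.77 on unchallenged replicate 1 and 10.19 without past exposure, and between 3.80 and 4.12 on the other arrays. CG9259, CG10514 and CG10513 had differences of -6.02, -5.43 and -5.11 and the same 2 high arrays. Of 43 measured family members, 6 were 2-fold lower, none was 2-fold higher and the median was -0.03. Over all genes, 1.11% were 2-fold lower and 0.434% higher. The family's largest differences thus sat in 4 members, the next being CG6908 at -1.29.

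Transporters made up another group. CG16727, CG17752 and CG17751, organic ion carriers of the SLC22 type, differed by -4.71, -4.52 and -3.55. CG16727 stood at 9.69 on unchallenged replicate 1, 4.33 on replicate 2, 4.76 and 4.40 with G418, 9.24 without and 4.53 with past exposure. The remaining 11 of 14 measured SLC22-like genes were less than 2-fold apart on the F3 arrays, and Orct, the first described member, was at -0.72. Among all genes, 1.11% were 2-fold lower and 0.434% higher. The SLC5-type transporter gene kumpel was read by 5 probe sets, all lower, at -4.25, -4.21, -2.37, -1.73 and -0.93.

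Zinc and metal handling genes appeared among the 36 probe sets with these 2 high arrays, a pattern noticed after the values were seen. The zinc exporter gene ZnT35C was at 5.06 on unchallenged replicate 1 and 5.91 without past exposure, and between 3.84 and 4.03 on the other 4. Zip71B, a zinc importer gene, differed by -2.28 and the metallothionein gene MtnC by -2.77. The homeobox gene cad, active in the posterior gut, was at 4.85 and 5.83 on the same 2 arrays and at most 3.69 elsewhere. The hindgut gene byn, by contrast, lay between 4.04 and 4.44 on all 6 arrays.

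ZnT35C and the potassium channel gene Irk3 were the measured markers of the Malpighian tubules, the excretory organ that opens further back in the gut, and both were 2-fold lower with past exposure. Irk3 reached 7.39 without past exposure and lay between 4.20 and 4.48 on the other 5 arrays, unchallenged replicate 1 included. A wider list of tubule genes was added after the values were seen and holds these same markers. All 8 of its measured genes lay below 0, with a median of -0.26, and 3 were 2-fold lower. Over all 11982 genes, 5606 lay below 0 and 1.11% were 2-fold lower. The 3 tubule genes were ZnT35C, Irk3 and the phosphate transporter gene NaPi-T, at -1.24. Dh44-R2 was at -0.32, Irk1 at -0.06 and Irk2 at -0.08. The part of tubule tissue in these differences was not tested.

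A pair of the 15 were high without past exposure and on no other array. CG14963 stood at 4.88 and 4.52 on the unchallenged arrays, 4.97 and 5.01 on the G418 arrays, 9.33 without and 4.86 with past exposure. CG16762 stood at 4.54, 4.10, 4.53, 4.54, 8.85 and 4.66 in that order. On the other 5 arrays CG14963 stayed between 4.52 and 5.01 and CG16762 between 4.10 and 4.66. These were the largest F3 differences among genes whose replicate pairs both lay within 1.5-fold. The array without past exposure was at least 2-fold above each other array at 18 probe sets, among them Scp2, salt and the antimicrobial peptide gene CecB, at 7.12, 6.98 and 7.89, chosen after their values were seen.

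Mucins that were 2-fold apart were all lower with past exposure. Of 19 measured peritrophic matrix and mucin genes, 4 were 2-fold lower with past exposure and none was 2-fold higher, with a median of -0.07. Over all genes, 1.11% were 2-fold lower and 0.434% higher. Mur18B was at 8.63 and 5.27 on the unchallenged arrays, 8.29 without and 5.86 with past exposure, a difference of -2.43. Muc18B, its measured neighbour on the X chromosome, differed by -1.44, and Muc55B by -1.25. Unlike Muc11A and Mur18B, both were highest on G418 replicate 1. Other bright members differed less: Muc68E was at 12.40 and 11.90 and Muc26B at 14.72 and 14.70 without and with past exposure.

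Another set was lowest on the array with past exposure. At 43 probe sets that array was at least 2-fold below each of the other 5. An unnamed probe set was between 10.03 and 12.16 on the other 5 arrays and at 5.48 with past exposure, a difference of -5.29. CG10912 was at 13.33 and 13.14 on the unchallenged arrays, 13.91 and 13.76 on the G418 arrays, 11.99 without and 9.85 with past exposure. Both F3 arrays were below the other 4 for that gene, and the difference was -2.15 or 4.42-fold.

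Genes of digestion, several of them in this set, were lower with past exposure as a list. Of 43 measured members, 12 were 2-fold lower with past exposure, none was 2-fold higher and 34 lay below 0, with a median of -0.26. Over all 11982 genes, 1.11% were 2-fold lower and 5606 lay below 0. The sterol-binding gene Npc2e was at 10.45 and 9.41 on the unchallenged arrays, 10.04 and 9.51 on the G418 arrays, 7.70 without and 5.63 with past exposure. The lipase gene mag differed by -2.28, though the G418 replicates were -3.56 apart. The maltase genes Mal-A8 and Mal-A6 were at 8.80 and 8.38 without and 7.22 and 7.12 with past exposure.

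Trypsins were part of the list, at high and low levels. The gene etaTry was at 6.38 without and 4.76 with past exposure, a difference of -1.61. The brighter alphaTry was at 13.71, 13.07, 13.84 and 13.46 on the unchallenged and G418 arrays, 12.81 without and 11.49 with past exposure. Its neighbours epsilonTry and betaTry were 1.01 and 1.02 lower with past exposure. Both F3 arrays were below the other 4 at 19 of the 43 digestive genes, against 7.13% of all genes. The list's median was 6.64 without and 6.01 with past exposure, against 7.37 to 9.26 on the other arrays, and within the unchallenged and G418 pairs the median difference was -0.71 and -0.43. Both of these medians were larger in size than that of the F3 pair. Whether the probe sets tell such closely related trypsins apart was not tested.

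Detoxification genes were part of the set lowest with past exposure. Among 80 measured cytochrome P450 genes, 2 were 2-fold higher and 3 lower, with a median of 0.01. Cyp12a4 ranged from 9.14 to 10.20 on the unchallenged and G418 arrays and was at 8.21 without and 6.54 with past exposure. Cyp6d5 differed by -1.42. Of 35 measured UDP-glycosyltransferase genes, 2 were lower, led by Ugt37A3 at -1.57. None of 34 glutathione S-transferase genes, which conjugate foreign compounds, was 2-fold apart, and their median was 0.07. With 0.434% of all genes 2-fold higher and 1.11% lower, a list of 34 may well hold none.

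At 7 probe sets the array with past exposure was at least 2-fold above each other array. The prophenoloxidase genes PPO1 and PPO2 encode melanin-forming enzymes of crystal cells, a class of haemocyte. PPO2 was at 7.92 and 6.99 on the unchallenged arrays, 6.72 and 6.99 on the G418 arrays, 7.20 without and 9.13 with past exposure. PPO1 was at 7.55, 6.32, 5.81, 6.16, 6.78 and 8.71 in the same order. Both were among the 7, with differences of 1.93 and 1.92.

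Haemocyte markers as a group leaned the same way. Of 21 measured, 3 were 2-fold higher, none was 2-fold lower and 19 lay above 0, with a median of 0.33. That compares with 0.434% of all 11982 genes 2-fold higher, 1.11% 2-fold lower and 6376 above 0. Beside PPO1 and PPO2, Nplp2 was at 1.24, a secreted peptide precursor gene whose replicate pairs were -1.74 and -1.56 apart. Hml, a hemolectin gene of plasmatocytes, stood at 6.69 without and 7.59 with past exposure, against 6.28 to 7.46 elsewhere. The crystal cell factor gene lz was at 2.87 and 2.98, low on all 6 arrays. PPO3, which belongs to another cell class, was at 3.43 and 3.32. The median of the list within the unchallenged pair was -0.80, again larger in size than the F3 median.

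Most muscle genes were slightly higher with past exposure. Of 20 measured contractile and sarcomere genes, 18 lay above 0, against 6376 of all 11982 genes. The list's median was 0.34, but only sls was 2-fold apart. Among all genes, 0.434% were 2-fold higher and 1.11% lower. The gene sls encodes the titin-like scaffold of the sarcomere and was at 6.08 and 5.59 on the unchallenged arrays, 6.36 and 6.62 with G418, 5.93 without and 7.37 with past exposure. It was highest on the last of these. Its other probe sets differed by 1.14 and 0.12. The myosin light chain gene Mlc2 differed by 0.94, the troponin T gene up by 0.71 and Mlp84B by 0.63. No muscle gene was 2-fold apart between the unchallenged arrays, whose list median was -0.17.

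At 41 probe sets (0.218%) the F3 arrays were at least 2-fold apart while each replicate pair stayed within 1.5-fold. They stood for 34 genes, of which 11 were higher and 23 lower with past exposure. For all 10 of the higher genes named here the array with past exposure was above the other 4. CG17047 led with 2.04, at 6.95 without and 8.99 with past exposure against 7.24 to 7.71 elsewhere. The aldehyde oxidase gene AOX4 differed by 1.42 and the cytochrome P450 gene Cyp49a1 by 1.04. CG33263, CG7768, CG17108, CG13077 and CG11842 lay between 1.06 and 1.30. Another probe set of CG7768 differed by 0.42.

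Of the 10 named lower genes in this group, 8 had the array with past exposure below the other 4. The transcription factor gene slbo, the fly C/EBP, was at 11.78 and 11.99 on the unchallenged arrays, 10.64 and 10.92 on the G418 arrays, 11.29 without and 9.85 with past exposure. The pericardin gene prc, a collagen-like matrix protein, was at 6.36 without and 4.53 with past exposure, against 5.39 to 6.58. Obp49a differed by -1.66, CG31789 by -1.41, CG6908 by -1.29, CG10237 by -1.23 and CG6012 by -1.22.

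**Figure D4:**
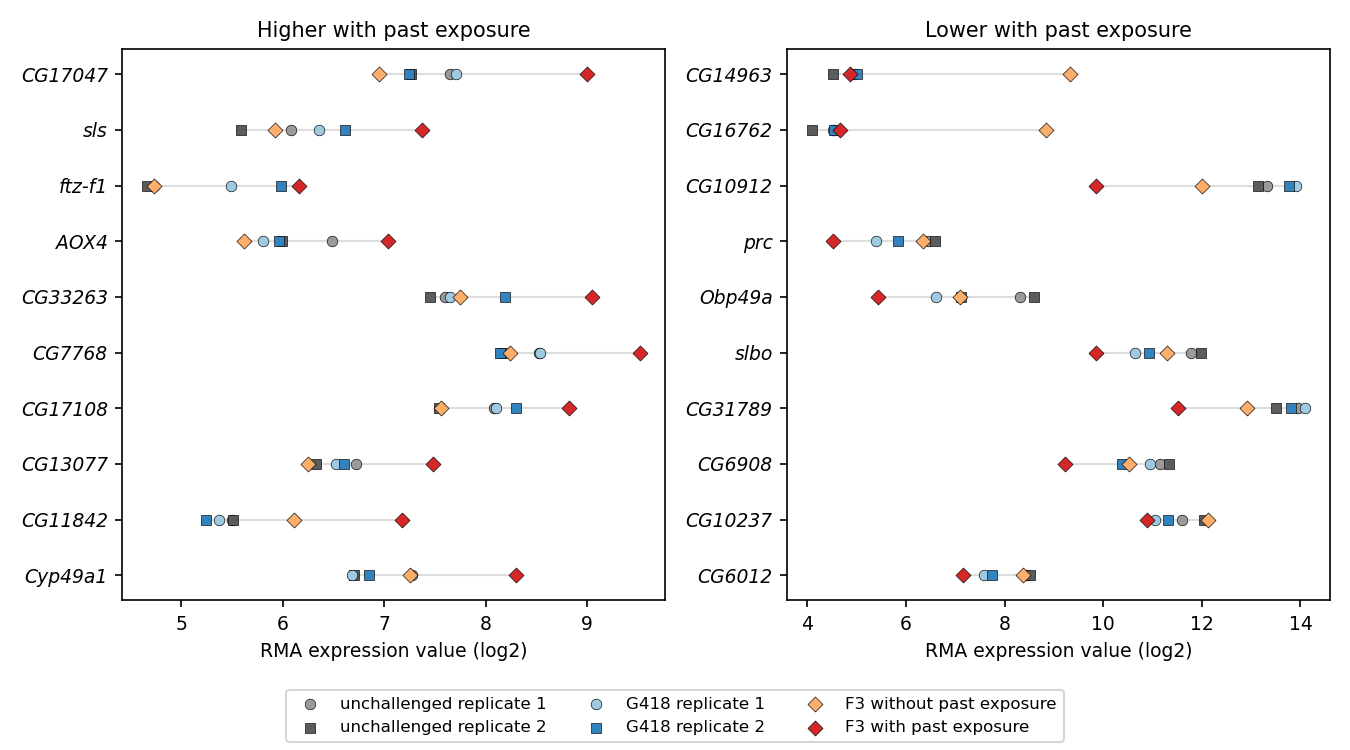
RMA values in log2 units (x axis) of the 10 genes furthest apart each way among those with both replicate pairs within 1.5-fold, 1 symbol an array. On the left the red diamond (F3 with) is highest in all 10 genes; on the right it is lowest in 8, and CG14963 and CG16762 instead have the orange diamond (F3 without) far above the rest.

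Hormone response genes held 1 member in each direction. Ecdysone is the steroid that times molting, and ftz-f1 is a nuclear receptor gene that is active after its pulses. It was at 4.73 and 4.66 on the unchallenged arrays, 5.49 and 5.99 on the G418 arrays, 4.73 without and 6.16 with past exposure. Another probe set of ftz-f1 differed by 0.50. The nuclear receptor gene Eip78C was at 7.12, 7.72, 6.03, 6.98, 7.37 and 5.72 in the same order, a difference of -1.65 with the last array lowest. The other 17 of 19 measured genes were within 2-fold, EcR differing by 0.02 and br by -0.48. Among all genes, 0.434% were 2-fold higher and 1.11% lower. The list's median was -0.11, against 0.34 and 0.45 within the unchallenged and G418 pairs.

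G418 and unchallenged arrays share none with the F3 pair, and their own difference was placed beside it. At 201 probe sets (1.07%) both G418 arrays lay above both unchallenged arrays with a mean at least 2-fold higher, and at 305 (1.63%) they lay below. Of the 70 probe sets higher with past exposure, 5 (7.14%) were in the higher G418 set, which is 2.49% of that set, and 1 was in the lower one. Of the 151 lower with past exposure, 24 (15.9%) were in the lower G418 set, or 7.87% of it, and 11 were in the higher one. Over the whole G418 sets the F3 difference had a median near 0, with -0.05 for the lower set.

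The shared genes, named after their values were seen, included ftz-f1 and CG11192 among the higher ones. CG11192 was at 8.17 and 6.44 on the unchallenged arrays, 10.20 and 9.75 with G418, 7.41 without and 9.56 with past exposure. Among the shared lower ones were slbo, Obp49a, MtnC, mag, Lip3 and the antimicrobial peptide gene Def. Def was at 10.49 and 10.11 on the unchallenged arrays, 5.02 and 9.01 with G418, 8.79 without and 6.61 with past exposure. Those that differed in opposite directions included Ugt37A3, etaTry and Alp9, each higher with G418 and lower with past exposure. The counts shared by the lists changed with the unchallenged or G418 array left out: the higher count was 2 when unchallenged replicate 2 was left out and 39 when unchallenged replicate 1 was, and the lower count was 58 when unchallenged replicate 2 was left out.

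Chromatin regulators, like most genes, differed little between the F3 arrays. None of 16 measured Polycomb group genes was 2-fold apart, with 6 above 0, 10 below and a median of -0.06. Over all genes 0.434% were 2-fold higher and 1.11% lower, so most lists of this size would hold none. In the complex that reads and compacts marked chromatin, Pc was at 7.23 without and 7.12 with past exposure, Psc at 7.06 and 6.91, Sce at 7.19 and 7.09 and Scm at 8.37 and 8.45. In the complex that writes the repressive methyl mark, E(z) differed by -0.06, Su(z)12 by -0.12, the histone-binding subunit by -0.10, Jarid2 by -0.05, esc by -0.29, escl by 0.34 and Pcl by 0.17. The factor jing had the largest difference of the 16, -0.65. The remaining 6 of 22 listed genes had no probe set with 1 symbol and were not analysed here.

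In the Pho repressive complex, phol and Sfmbt were at 0.10 and 0.03, and outside it sxc and Asx were at 0.05 and -0.05. The same list had medians of 0.33 and 0.46 within the unchallenged and G418 pairs, larger in size than the F3 median. Psc, for example, was at 6.60 and 7.49 on the unchallenged arrays and at 5.58 and 6.78 on the G418 arrays, a range that holds both F3 values. Trithorax group genes, which maintain active states, had 15 members measured, from -0.22 to 0.24 with a median of 0.01. The shorter lists of heterochromatin genes, small RNA pathway genes and Hox genes also had none 2-fold apart, with medians of -0.06, 0.07 and 0.06.

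Some groups of housekeeping genes leaned 1 way by small amounts. Of 69 measured mitochondrial ribosomal protein genes, 61 lay above 0 with a median of 0.12, and of 69 oxidative phosphorylation subunits 58 did, with a median of 0.09. Over all 11982 genes, 6376 lay above 0 and 5606 below. Of 40 proteasome subunits, 30 lay below 0 with a median of -0.12. The largest difference among mitochondrial ribosomal proteins was 0.42, for mRpL3, at 7.40 without and 7.82 with past exposure against 7.40 to 7.96 on the other arrays. Both F3 arrays lay below the other 4 at 16 of the 69 mitochondrial ribosomal protein genes and 4 of the 69 oxidative phosphorylation subunits. The share over all genes was 7.13%. Cytosolic ribosomal protein genes did not lean, with 18 above and 19 below 0 and a median of -0.01, nor did 31 V-ATPase subunits, with 16 above and 15 below. Within the unchallenged and G418 pairs the medians were 0.26 and -0.03 for the mitochondrial ribosome, 0.01 and -0.20 for oxidative phosphorylation and 0.14 and 0.08 for the proteasome.

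**Figure D5:**
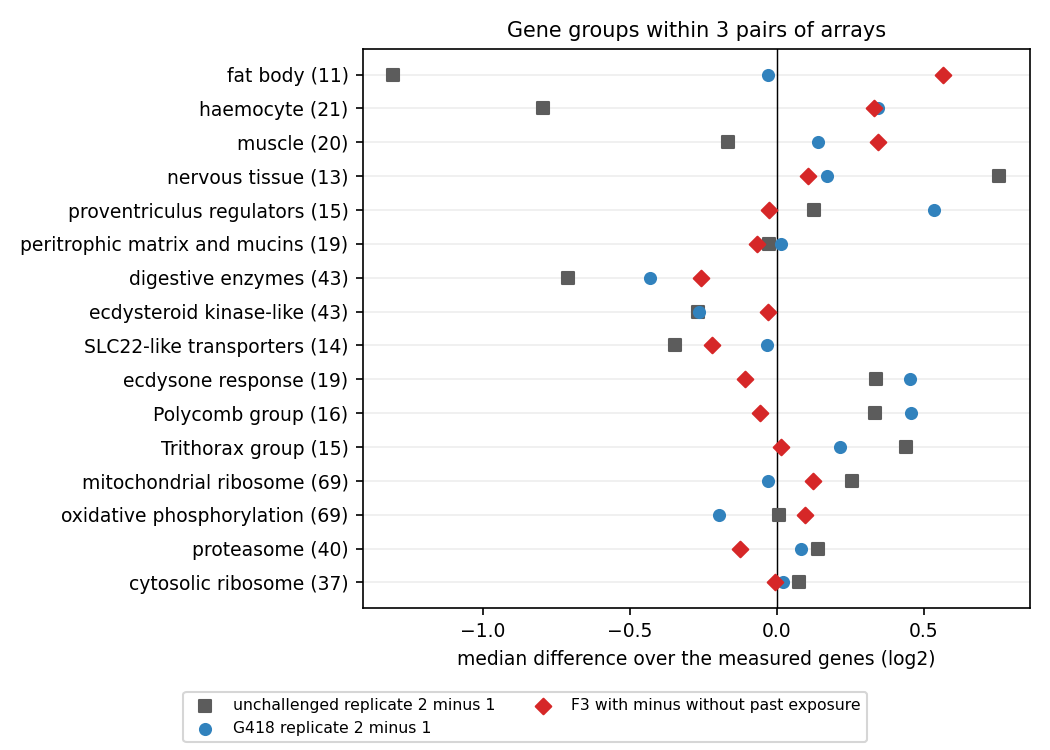
Median log2 difference (x axis) over the measured genes of 16 groups, with the number of genes in brackets, for the F3 arrays (red diamonds) and the unchallenged and G418 replicate pairs (squares and circles). Of the groups shown, fat body, haemocyte and muscle have the highest F3 medians, at 0.56, 0.33 and 0.34, and the fat body median within the unchallenged pair is -1.31.

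Most stress and signal lists held no gene 2-fold apart. They are short, and over all genes only 0.434% were 2-fold higher and 1.11% lower. None of the measured heat shock, antioxidant, unfolded protein response, JNK and cell death, JAK-STAT, Notch target or cell cycle genes was 2-fold apart. Among 13 antimicrobial peptide genes, Def and CecB were 2-fold lower, at -2.18 and -2.02, and among 14 immune recognition genes pirk, a negative regulator of the IMD pathway, was at -1.39. Cuticle protein genes numbered 102, with Cpr49Ag at 1.38 and Cpr49Ac at -1.49 as the only ones 2-fold apart.

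Some of the genes that separated the F3 arrays are neighbours. Among 11893 genes placed on a chromosome arm by their RefSeq records, 185 were 2-fold apart, and 29 of them formed 12 runs of adjacent measured genes. Genes of a run differed in the same direction in 11 of the 12. The 5 runs of 3 genes were CG10513, CG10514 and CG11892 on arm 3R, CG17751, CG17752 and CG16727 on 3R, CG3285, CG15408 and E23 on 2L, CG7248, CG11570 and prc on 3L, and the 3 trypsin genes on 2R. All 15 of these genes were lower with past exposure.

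Members of a run did not always share their array pattern. CG3285 and CG15408 were high on unchallenged replicate 1 and without past exposure, at 7.15 and 7.11 for CG3285, while E23, an ecdysone-induced transporter gene beside them, was between 10.14 and 11.12 on 5 arrays and at 9.76 with past exposure. Among X and the autosome arms, the share of genes 2-fold apart ran from 0.961% on X to 1.90% on 2L, and on Y it was 0 of 4 genes. For 10 genes 2-fold apart that were read by further probe sets, named here or not, these had the same sign in 14 of 14 cases. Of the 14, 6 were also 2-fold apart, and kumpel gave more of the 14 than any other gene.

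The 2-fold limit cuts through a continuous range. Just inside it were CG10257 at -1.01 and CG33640 at 1.02, and just outside it were CG32100 at -0.99 and Cht7 at 0.99.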

How the data were processed

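Total RNA of the larval proventriculus was labelled with a 3' IVT kit that primes at the poly(A) tail, per the labels' protocols. The deposited values are log2 values from RMA, which per the submitters' processing notes the authors ran in Affymetrix Expression Console. Its version, and whether RMA took the 6 arrays as 1 set, is not given in the sources used here. Groups were read from the sample titles. The 183 control probe sets were left out.

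Probe sets were named through the platform annotation, with symbols updated by gene identifier from a RefSeq gene table (assembly Release 6), which also gave chromosome arms and gene order. Of 18769 probe sets, 13647 had 1 symbol, 402 several and 4720 were unnamed here; 103 kept an older symbol. Of several probe sets of a gene the brightest on average was kept, giving 11982 genes. The files name no genome build, so no coordinates are given.

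F3 differences were computed as with minus without past exposure and counted at 2-fold, 1.5-fold and 4-fold. No test was made of the F3 difference, with 1 array a side. The named genes were the 15 furthest apart in each direction among genes with a mean at or above 4.98, the median; up to 10 each way with both replicate pairs within 1.5-fold; up to 4 per described list; every measured Polycomb gene; and runs of 3 or more neighbours. Genes named outside this rule were chosen after their values were seen: dve, fkh, drm, odd, hh, D, Peritrophin-15a, Peritrophin-15b, Mtp, ppl, Tsf1, Lip3, Prat2, Orct, Zip71B, MtnC, Irk1, Irk2, Scp2, salt, Muc68E, Muc26B, Mal-A6, Mal-A8, etaTry, PPO3, lz, EcR, Alp9, CG1368, CG6055 and the genes beside the 2-fold limit. The members and the 40 gene lists were chosen with earlier results of these data known, and 3 further lists after the values were seen. Counts of 2-fold differences and the further quantile normalization were tested on simulated data, and the naming rules were not. Array values carry no counts, and precision is limited by how many arrays there are. Alternatives covered fold thresholds, further normalization, centring, dim filters, 1 probe set a gene, averaging over a gene's probe sets and leaving out arrays. Python 3.11.15, pandas 2.3.3, numpy 2.4.6 and matplotlib 3.10.9 were used.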

Additional observations from a re-analysis of the deposited data

How the results depend on the processing

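No paired analysis was possible because the F3 results come from no test and the 1 array a side shares no replicate pairs. At 1.5-fold and 4-fold, the probe sets higher with past exposure numbered 256 and 17 and those lower 392 and 51, against 2781 and 414 apart between the unchallenged replicates and 2176 and 83 between the G418 replicates. The probe sets 2-fold apart on the F3 arrays with steady replicates numbered 143 when only the G418 pair was held within 1.5-fold. They numbered 83 with both pairs held within 2-fold, an alternative chosen after seeing the data. The probe sets shared with the G418 comparison were 42 higher and 87 lower at 1.5-fold, also chosen after seeing the data. With each unchallenged or G418 array left out in turn they ran from 2 to 39 higher and from 20 to 58 lower. The cause was not tested. Further quantile normalization, centring of the arrays, filters on dim probe sets and 1 probe set a gene left the 2-fold counts within 1.5 times. The counts shared with the G418 comparison were not put through these. The 214 named genes were put through normalization, centring and averaging over a gene's probe sets, and the 40 lists also through a dim filter. Of 642 gene values 5 moved, as did 4 of 158 list values. None was labelled reversed, but small differences could change sign without that label. With probe sets averaged, the nervous tissue gene brp went from 0.39 to -0.01. With dim genes left out, the salivary median went from -0.03 to 0.08. F3 values rest on 1 array a side and have no error of their own, and dim probe sets limit what small differences can show.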

Other observations

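Ring gland genes, listed after their values were seen, did not separate the F3 arrays in the main. The ring gland lies near the proventriculus and makes ecdysone and metabolic hormones. The steroid synthesis gene spok, at 3.18 without past exposure and 3.55 with it, reached 8.22 and 7.39 on unchallenged replicate 2 and G418 replicate 1, against 3.19 and 3.42 on the remaining arrays. The genes sad and nvd had the same 2 high arrays, with F3 differences of -0.27 and -0.28. Akh, the adipokinetic hormone gene of the adjoining corpora cardiaca, was high on those 2 arrays too, at 9.21 and 9.07. Unlike spok, it was also high on the F3 array without past exposure, at 8.98, and it stood at 6.40 with past exposure, a difference of -2.58.

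Among genes of other tissues, salivary glue and new glue genes numbered 10 and had a median F3 difference of -0.03, with 3.47 and -0.95 within the unchallenged and G418 pairs. The 13 measured nervous tissue genes had a median F3 difference of 0.11, against 0.76 within the unchallenged pair, and the neuronal gene elav was at 4.54 without and 5.06 with past exposure. Of 5 measured tracheal genes, the 4 of the luminal matrix were above 0 with a median of 0.39, against 0.89 within the G418 pair, and the receptor gene btl was at -0.44. Further genes highest with past exposure were CG1368, at 10.57 without and 12.18 with it, and CG6055, at 6.91 and 8.68, both chosen after their values were seen.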
